A study of Mus musculus with 4 samples.

Results

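The endoplasmic reticulum (ER) genes described here were 40 genes chosen by name out of the 55573 genes in the table, and all 40 were present. They comprise 11 chaperones and co-chaperones, a group of 6 that holds thiol oxidoreductases and a proline isomerase, a group of 3 with sensors and a transcription factor of the unfolded protein response, 9 subunits of the protein translocon, 6 subunits of the oligosaccharyltransferase and 5 genes of ER-associated degradation. Ribosome-protected fragments were sequenced from primary mouse myoblasts on day 2 of proliferation, 2 libraries labelled WT and 2 labelled eIF5A knockout (KO), from hind-limb muscle of 3-week-old mice on a C57BL/6j background. The sample titles call the libraries Polysome-Seq, while the protocol in the labels digests the lysate with RNase I and purifies protected fragments, and the values are read here as ribosome profiling on the strength of that protocol. The study describes its KO mice as carrying Pax7-CreERT2 and eIF5A f/f alleles. For the 3-week-old animals it names tamoxifen-induced KO mice and WT littermates. The controls are given as Pax7 CreERT2/+ in one place and as eIF5A f/f without Cre in another, so which alleles both groups shared is not settled. In its experiments on older mice the study gave tamoxifen to KO and control animals alike, and for the younger animals used here it names tamoxifen for the KO mice. All cells were cultured with serum and FGF and then exposed to cycloheximide, for 1 min in the series design and 10 min in the sample labels. Cre driven by Pax7 acts in satellite cells, and no sorting step is described for this preparation, so other muscle cells in the dish would keep an intact allele. How many animals went into a library is not given in the sources used here.

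Proteins bound for secretion or for membranes enter the ER through the Sec61 channel while they are still being translated. Oligosaccharyltransferase adds N-glycans to the entering chain, chaperones and disulfide isomerases fold it, and chains that fail to fold are returned to the cytosol for degradation by the proteasome. When unfolded protein accumulates, the sensors Ire1 (Ern1), Atf6 and Perk raise transcription of chaperone and degradation genes through Xbp1, cleaved Atf6 and Atf4. Fibroblasts and myoblasts both run this route for collagens, fibronectin and adhesion receptors. eIF5A is the hypusinated factor that relieves ribosomes stalled at runs of prolines and other difficult motifs, and it also acts in termination.

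The targeted gene was examined first. Eif5a had 34.9 and 65.2 RPKM (reads per kilobase of gene length, scaled by library size) in the WT libraries against 60.3 and 59.4 RPKM under the KO label, so its signal was not lower under the KO label (log2 fold change 0.32 ± 0.48, SE, n = 2 per group, limma adjusted p = 0.839). Directions below therefore go by the label. The libraries held 642429 to 704006 reads recovered from the RPKM values, of which 33.9% to 65.4% fell on protein-coding genes, with the 2 highest shares in the libraries labelled KO. Library 1 labelled KO gave 2.20% (95% Wilson interval 2.16 to 2.25) of its protein-coding reads to the 40 genes, against 1.07% (1.03 to 1.11) and 0.97% (0.93 to 1.02) in WT libraries 1 and 2 and 1.18% (1.15 to 1.22) in library 2 labelled KO. Intervals cover counting error only.

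Across the 40 genes, ribosome-protected signal leaned towards the libraries labelled KO, and no single gene passed the test. Of the 40 genes, all tested, 33 had a log2 fold change (libraries labelled KO over WT) above 0 and 7 below, with a median of 0.60, while 50.0% of the 11363 tested genes lay above 0 with a median of 0.00. Without library 1 labelled KO the median of the 40 was 0.27. Among the 9877 tested protein-coding genes the share above 0 was 53.1% and the median 0.05. limma called none of the 40 at an adjusted p under 0.05 in either direction (smallest adjusted p = 0.567), against 0.0968% of all tested genes called lower and 0.0088% called higher. At an unadjusted p under 0.05, 2 of the 40 were higher (Sec61g and Ssr2) against 2.86% of tested genes, and 0 were lower against 4.46%. limma-voom on the recovered reads also called 0 of the 40 and gave 5 higher at an unadjusted p under 0.05, against 3.48% of the genes it tested. Sec61g was not among these 5 (limma-voom unadjusted p = 0.129). With libraries scaled to the same sum, which moved the median of all tested genes to 0.81, 22 of the 40 were higher at that p against 14.4% of all tested genes, and the median of the 40 was 1.60. Both libraries labelled KO lay above both WT libraries for 23 of the 40 (57.5%), against 20.1% of all tested genes, and below them for 2 (Sdf2l1 and Ern1), against 20.3%. With 2 libraries a group an exact permutation of labels for a single value cannot reach 0.05. The study describes duplicate Ribo-seq experiments, but nothing in the labels says the libraries of a group came from separate cultures. The p-values therefore measure only the spread between these libraries. Ribosome-protected signal alone cannot tell a change in mRNA from a change in ribosomes per mRNA, nor more cells of a type from more RNA per cell.

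**Figure D1:**
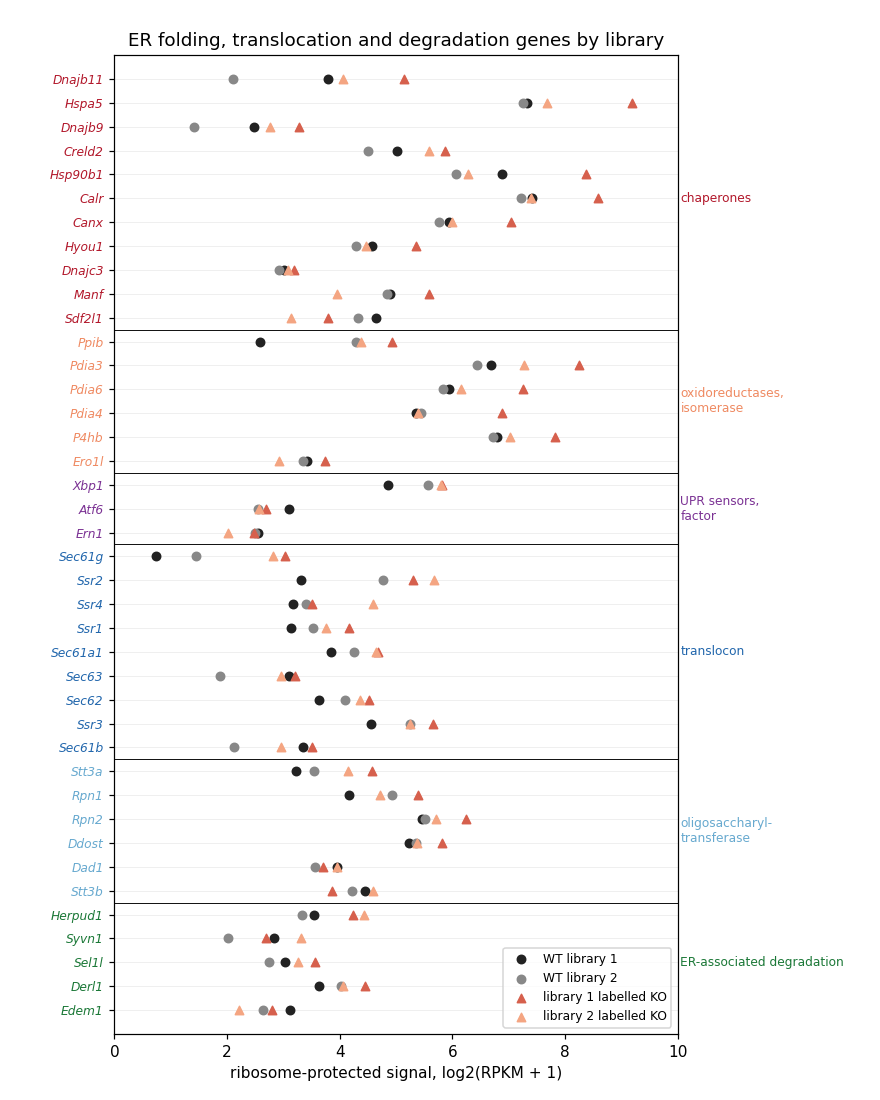
Ribosome-protected signal of the 40 ER genes on the log2(RPKM + 1) scale (horizontal axis), 1 row per gene, grouped by role. Circles are the 2 WT libraries and triangles the 2 libraries labelled KO; among chaperones and oxidoreductases library 1 labelled KO lies above library 2 in 11 of 11 and 6 of 6 rows.

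The chaperones split the libraries labelled KO. Summed over the 11 genes, the signal was 638 and 517 RPKM in WT libraries 1 and 2, 1638 RPKM in library 1 labelled KO and 630.4 RPKM in library 2, which lies between the WT values. Measured against the WT mean on the log2 scale, the median difference of the 11 genes was 1.19 for library 1 labelled KO and 0.11 for library 2. Library 1 labelled KO was above library 2 in 11 of 11 chaperones (median difference 1.05), where the median of all tested genes between these 2 libraries was -0.01. WT library 1 also exceeded WT library 2 in 11 of 11, by a smaller median of 0.28. The median log2 fold change of the chaperones was 0.69 with all 4 libraries and 0.11 without library 1 labelled KO.

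Hspa5, the Hsp70 chaperone BiP that binds nascent chains and holds the stress sensors inactive, had 160.4 and 152 RPKM in WT and 585 and 203 RPKM under the KO label. These rest on 409, 302, 2244 and 694 reads. Library 1 labelled KO stands far above the other libraries, and the groups do not overlap. The fold change was 1.14 ± 0.65 (SE, n = 2 per group) on the log2(RPKM + 1) scale, with a limma adjusted p of 0.697. Hspa5 (ENSMUSG00000026864) lies at chr2:34771970-34777547 of GRCm38 on the + strand.

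Hsp90b1, the ER Hsp90 known as Grp94, had 117 and 66.3 RPKM in WT and 330.3 and 76.8 RPKM under the KO label. Here the groups overlap, since library 2 labelled KO falls between the WT values (0.85 ± 0.79, SE, limma adjusted p = 0.732), and the difference is -0.20 without library 1 labelled KO. Calr and Canx, the soluble and membrane lectin chaperones that hold glycoproteins, were also highest in library 1 labelled KO. Calr overlapped between groups, with library 2 labelled KO between the WT values, and Canx did not, with library 2 just above them. Calr had 169 and 147 RPKM in WT against 384 and 169 RPKM, and Canx 60.1 and 53.4 RPKM against 130.2 and 62.5 RPKM. Their fold changes were 0.69 ± 0.59 and 0.66 ± 0.52 (SE, limma adjusted p = 0.727 and 0.719). Without library 1 labelled KO the differences of Hspa5, Calr and Canx were 0.38, 0.09 and 0.14.

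The J-domain co-chaperones, which load substrate onto BiP, were less expressed. Dnajb11 had the highest fold change of the chaperones, with 12.8 and 3.28 RPKM in WT and 34.4 and 15.7 RPKM under the KO label (1.66 ± 0.69, SE, limma adjusted p = 0.675). Both libraries labelled KO were above both WT libraries for Dnajb11, though the nearest values, 15.7 and 12.8 RPKM, are close, and WT library 2 held 5 reads. Leaving out WT library 2 gave 0.82 for Dnajb11, below the value of Hspa5 in the same fit. Dnajb9 (fold change 1.08) also did not overlap between groups, but 44.4% of the 30-base stretches of its coding sequence also occur in an annotated copy, so its value is uncertain. Dnajc3 differed little, at 7.10 and 6.61 RPKM in WT and 8.15 and 7.47 RPKM under the KO label.

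Sdf2l1, a partner of Dnajb11 in the BiP cycle, went the other way. It had 24.0 and 19.2 RPKM in WT and 12.9 and 7.82 RPKM under the KO label, with no overlap, from 7 to 16 reads a library (-1.02 ± 0.43, SE, limma adjusted p = 0.675). Manf, a secreted stress-inducible ER protein, lay on opposite sides of WT in the libraries labelled KO, at 46.9 and 14.4 RPKM against 28.7 and 27.7 RPKM in WT. Of the others, Hyou1, the nucleotide exchange factor of BiP, and Creld2, a stress-inducible ER protein with EGF-like repeats, had fold changes of 0.49 and 0.96. The value of Hyou1 was 0.04 when library 1 labelled KO was left out. For Creld2 both libraries labelled KO were above WT, at 57.3 and 47.1 RPKM against 31.6 and 21.8 RPKM.

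The promoters of several of these genes hold the ER stress response element (ERSE), at which cleaved Atf6 and Xbp1 act together with NF-Y. The sequences below are shown because the genes that carry them include several that stood high in library 1 labelled KO. A window of 250 bases before to 50 after the start site (RefSeq, GRCm38.p6) was matched to 34 of the 40 genes and searched on both strands for CCAAT and CCACG separated by 9 bases (ERSE) and for ATTGG and CCACG separated by 1 base (ERSE-II). Capitals mark these paired motifs and lower case the spacer and 6 flanking bases, each written 5′ to 3′ on the strand named.
Hspa5, chr2:34772019-34772049, + strand: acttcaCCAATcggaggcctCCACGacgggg
Hsp90b1, chr10:86705527-86705557, + strand: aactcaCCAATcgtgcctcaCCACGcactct
Hsp90b1, chr10:86705632-86705662, - strand: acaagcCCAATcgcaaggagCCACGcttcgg
Calr, chr8:84847069-84847099, + strand: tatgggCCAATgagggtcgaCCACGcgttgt
Canx, chr11:50325794-50325824, - strand: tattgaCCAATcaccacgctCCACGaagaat
Creld2, chr15:88819514-88819544, - strand: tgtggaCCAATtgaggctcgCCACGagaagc
Dnajc3, chr14:118937821-118937851, + strand: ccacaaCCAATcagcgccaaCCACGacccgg
Pdia6, chr12:17266485-17266515, + strand: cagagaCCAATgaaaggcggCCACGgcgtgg
Syvn1, chr19:6046526-6046556, + strand: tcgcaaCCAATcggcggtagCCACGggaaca
Dnajb11 (ERSE-II), chr16:22857846-22857868, + strand: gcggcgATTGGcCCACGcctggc
Herpud1 (ERSE-II), chr8:94386371-94386393, + strand: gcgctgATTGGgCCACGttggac

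ERSE was found in 8 of the 34 matched genes (23.5%). Over all genes with a promoter, these 8 included, it was found in 37 of 27025 (39 of 32851 promoters, 0.119%). ERSE-II was found in 2 of the 34 and in 12 of 27025 genes (12 promoters, 0.0365%). The 40 genes were chosen by name for this pathway, so this excess is not a result of these data. The match nearest the start site in Hspa5 is centred 56 bases upstream, that in Hsp90b1 98 bases upstream and that in Canx 136 bases upstream, while the ERSE-II match of Dnajb11 lies 12 bases downstream. These distances are from the RefSeq start site. The Hspa5 match lies inside the gene span given above, which begins upstream of that start site. All 10 genes with either element had a fold change above 0, with a median of 0.83, as did 19 of the 24 matched genes with neither, whose median was 0.56. These medians were 0.32 and 0.31 without library 1 labelled KO. The median difference between library 1 and library 2 labelled KO was 1.07 in the genes with an element and 0.46 in those with neither. The genes with an element are mostly chaperones, whose own median on this contrast was 1.05, and they were shown for their values in library 1. The split is therefore not separate from the chaperone result. Among the genes outside the 40 that hold either element, 11 were tested and their median fold change was 0.21. These medians are descriptions without a test, and a match says nothing on whether a factor was bound. Only exact matches within the window were counted, so a gene with neither may still hold a variant element. Dnajc3 carries ERSE and differed little between libraries.

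The thiol oxidoreductases, which form and rearrange disulfide bonds, followed the chaperones. Their summed signal with Ppib was 327 and 316 RPKM in WT and 838 and 421 RPKM in libraries 1 and 2 labelled KO, and the median difference from WT was 1.42 and 0.27. P4hb, protein disulfide isomerase itself, had 109.6 and 105 RPKM in WT and 224 and 129.8 RPKM under the KO label (0.67 ± 0.50, SE, limma adjusted p = 0.712). Its groups do not overlap, with library 2 labelled KO the nearer to WT. Pdia3, which works with Calr and Canx on glycoproteins, had a fold change of 1.20, Pdia6 0.82 and Pdia4 0.74. Without library 1 labelled KO these were 0.72, 0.27 and -0.02, and that of P4hb was 0.28. For Pdia4, library 2 labelled KO at 40.8 RPKM lay between the WT values of 40.1 and 42.5 RPKM, and library 1 was at 118 RPKM.

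Ero1l, the oxidase that recharges protein disulfide isomerase, had the lowest value of the 6. It had 9.73 and 9.24 RPKM in WT and 12.3 and 6.56 RPKM under the KO label, so the libraries labelled KO lay on both sides of WT (-0.06 ± 0.43, SE, limma adjusted p = 0.971). Ppib, cyclophilin B, a peptidyl-prolyl isomerase for procollagen, had the highest, with 5.02 and 18.6 RPKM in WT and 29.4 and 19.9 RPKM under the KO label (1.21 ± 0.64, SE, limma adjusted p = 0.684). The groups do not overlap, and the WT libraries lie far apart. Leaving out WT library 1 gave 0.36 for Ppib, below Pdia3 at 1.33. Of the Ppib exon bases 25.0% overlap Snx22 on the opposite strand, and whether reads were counted by strand is not given in the sources used here.

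**Figure D2:**
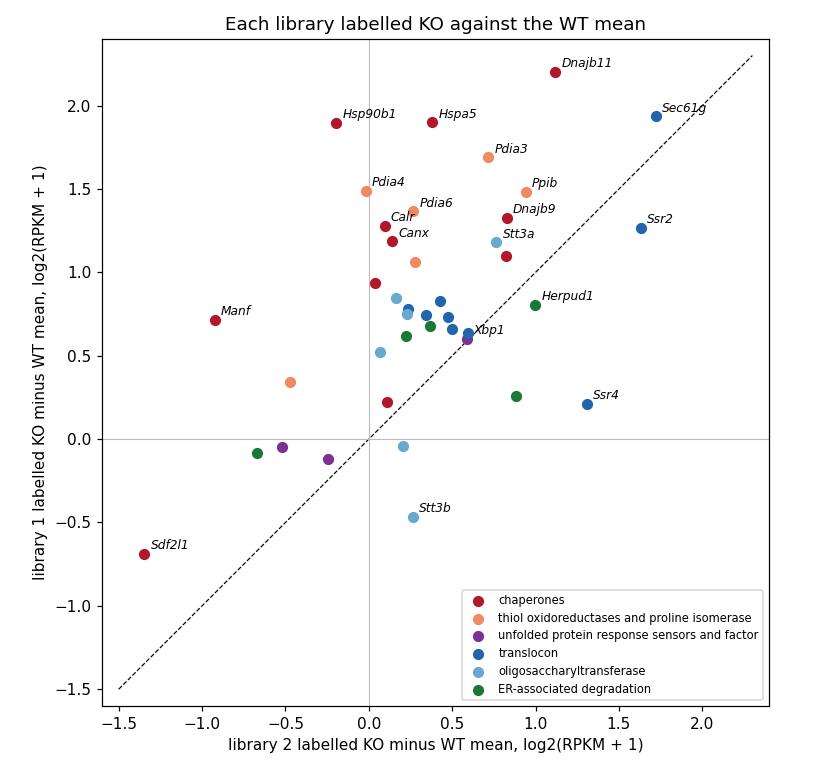
Difference from the WT mean on the log2(RPKM + 1) scale in library 2 labelled KO (horizontal) and library 1 labelled KO (vertical), 1 point per gene coloured by role; the dashed line marks equal differences. Hsp90b1, Calr, Canx and Pdia4 sit well above the line near 0 on the horizontal axis, and Hspa5 sits well above the line at 0.38. Xbp1, Herpud1, Sec61g and Ssr2 lie closer to the line.

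The summed signal of fibroblast markers was also highest in library 1 labelled KO. Of 14 fibroblast markers 13 were tested, and all 13 were higher in library 1 than in library 2 labelled KO, with a summed signal over the listed markers of 719 and 513 RPKM in WT and 1171 and 588 RPKM under the KO label. Their median fold change was 0.48, and 0.04 without library 1 labelled KO. Tcf21 was at 0 in every library. The 10 myoblast markers summed to 346 and 211 RPKM in WT and to 118 and 133 RPKM under the KO label (Msc was at 0 in 3 libraries). Of the 9 tested 8 were below 0, with a median of -1.27. Much of the gap between the WT sums is Myog, at 91.0 RPKM in WT library 1 and 4.26 RPKM in WT library 2. The 7 endothelial markers, of which 6 were tested, summed to 118 and 108 RPKM in WT and 151 and 124 RPKM under the KO label, and the 7 immune markers, of which 5 were tested and Ptprc was at 0 in 2 libraries, to 48.2 and 76.5 RPKM and 66.8 and 51.4 RPKM. The part of cell makeup in the chaperone values was not tested.

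The sensors showed small differences with large errors. Ern1, the Ire1 kinase and endonuclease that splices Xbp1 mRNA, had 4.87 and 4.67 RPKM in WT and 4.59 and 3.03 RPKM under the KO label (-0.28 ± 0.38, SE, limma adjusted p = 0.814). Atf6, the membrane-tethered factor released by proteolysis, had 7.55 and 4.83 RPKM in WT and 5.49 and 4.96 RPKM under the KO label (-0.18 ± 0.39, SE, limma adjusted p = 0.889). Ern1 values lay below WT by a narrow gap, and those of Atf6 lay within the WT range. Xbp1, the factor made from the spliced mRNA, had 28.1 and 46.4 RPKM in WT and 55.3 and 54.9 RPKM under the KO label (0.60 ± 0.45, SE, limma adjusted p = 0.712). The libraries labelled KO were nearly equal and above both WT libraries, which differed from each other. A value per gene cannot tell spliced from unspliced Xbp1, so it is not a readout of Ire1 activity.

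The translocon genes leaned the same way in both libraries labelled KO. All 9 had a fold change above 0, with a range of 0.51 to 1.83 and a median of 0.62. The median difference from WT was 0.75 in library 1 and 0.50 in library 2 labelled KO, and both lay above the WT mean in 9 of 9. Summed signal was 89.5 and 125 RPKM in WT and 188 and 186 RPKM under the KO label. Without library 1 labelled KO the median was 0.50, and in 7 of 9 genes WT library 2 was the higher of the WT libraries.

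Sec61a1, the pore of the channel, had 13.3 and 18.0 RPKM in WT and 24.6 and 23.9 RPKM under the KO label, on 54 to 150 reads. The groups do not overlap and the libraries labelled KO are nearly equal (0.62 ± 0.39, SE, limma adjusted p = 0.697). The small subunits Sec61g and Sec61b had the highest and the lowest fold change of the 9. Sec61g had 0.67 and 1.72 RPKM in WT, from 1 and 2 reads, and 7.16 and 6.03 RPKM under the KO label, from 16 and 12 reads (1.83 ± 0.43, SE, unadjusted p = 0.00587 and adjusted p = 0.567, limma). On the summed reads its ratio was 5.85 with a 95% counting interval of 1.81 to 30.0. Sec61g shares 84.1% of its coding 30-base stretches with other annotated genes and Sec61b shares 65.5%, so reads of both could be split with copies. Sec61b had 9.14 and 3.34 RPKM in WT and 10.4 and 6.82 RPKM under the KO label, with overlap (0.51 ± 0.53, SE, limma adjusted p = 0.756).

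The translocon-associated protein complex, which helps some signal sequences engage the channel, is encoded by Ssr1 to Ssr4. Ssr2 had 8.90 and 26.2 RPKM in WT and 38.4 and 49.8 RPKM under the KO label, from 10, 23, 65 and 75 reads. Its groups do not overlap, and the WT libraries lie far apart (1.45 ± 0.58, SE, unadjusted p = 0.0487 and adjusted p = 0.672, limma). Leaving out WT library 1 gave 0.72 for Ssr2. Of the Ssr2 exon bases 12.8% overlap a gene on the opposite strand. Ssr4, Ssr1 and Ssr3 had fold changes of 0.76, 0.63 and 0.54. Sec62 and Sec63, which serve chains entering after translation and couple the channel to BiP, had 0.58 and 0.60.

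Oligosaccharyltransferase genes leaned less. Of the 6, 5 were above 0 and the median was 0.39, or 0.21 without library 1 labelled KO. The summed signal was 140.3 and 153 RPKM in WT and 219 and 171 RPKM under the KO label. The alternative catalytic subunits differed: Stt3a, which glycosylates chains as they pass the channel, had the highest fold change and Stt3b, which acts on sites that were skipped, the lowest. Stt3a had 8.34 and 10.7 RPKM in WT and 22.7 and 16.7 RPKM under the KO label, with no overlap (0.97 ± 0.40, SE, limma adjusted p = 0.672). Stt3b had 20.8 and 17.6 RPKM in WT and 13.6 and 23.2 RPKM under the KO label, on both sides of WT (-0.10 ± 0.44, SE, limma adjusted p = 0.951). The difference between them was not tested.

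Rpn1, a scaffold subunit, had 16.9 and 29.6 RPKM in WT and 41.1 and 25.2 RPKM under the KO label, with overlap (0.50 ± 0.49, SE, limma adjusted p = 0.738). Rpn2 and Ddost, also structural subunits of the enzyme, had fold changes of 0.49 and 0.30 with no overlap between groups. Dad1, the small subunit named as a defender against cell death, had 0.08.

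In ER-associated degradation, 4 of 5 genes were above 0, with a median of 0.52. Herpud1, a stress-inducible membrane protein that helps assemble the Hrd1 ligase complex, had 10.7 and 9.10 RPKM in WT and 18.0 and 20.7 RPKM under the KO label, on 10 to 39 reads. The groups do not overlap, and library 2 labelled KO is the higher of its pair (0.90 ± 0.38, SE, limma adjusted p = 0.675). Edem1, a lectin that hands trimmed glycoproteins to degradation, had 7.71 and 5.26 RPKM in WT and 5.98 and 3.65 RPKM under the KO label, with overlap (-0.38 ± 0.41, SE, limma adjusted p = 0.773). Syvn1, the Hrd1 ubiquitin ligase, its adaptor Sel1l and Derl1, a Derlin of the retrotranslocation channel, had 0.57, 0.52 and 0.42. Derl1 shares 40.5% of its coding 30-base stretches with an annotated copy.

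**Figure D3:**
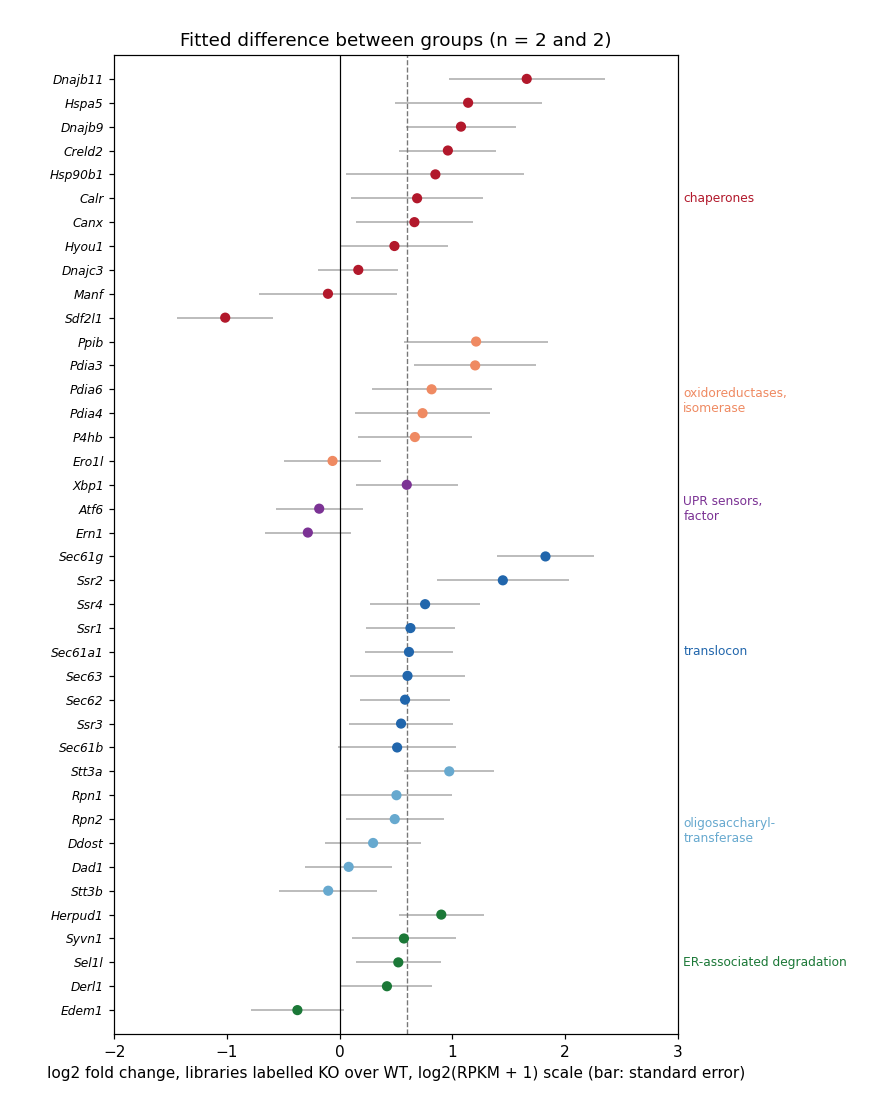
Fitted log2 fold change of each gene, libraries labelled KO over WT on the log2(RPKM + 1) scale, grouped by role; bars are limma standard errors (n = 2 per group), the solid line marks 0 and the dashed line the median of 0.60. The 9 translocon genes all lie above 0, and Sdf2l1 at -1.02 is the lowest value.

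**Figure D4:**
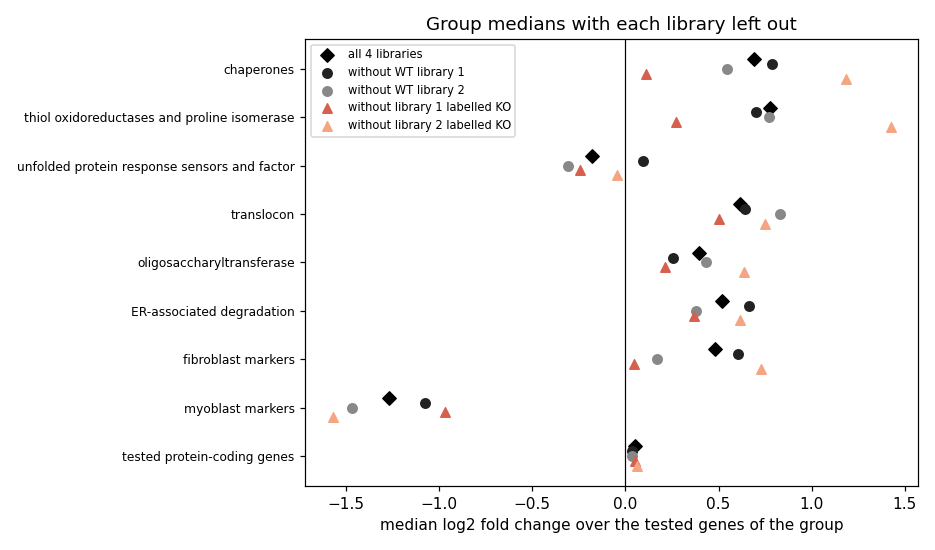
Median log2 fold change of each group of genes (horizontal axis) with all 4 libraries (diamond) and with each library left out. Chaperones move from 0.69 to 0.11 and oxidoreductases from 0.78 to 0.27 without library 1 labelled KO, translocon genes from 0.62 to 0.50.

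A wider list of the same pathway also leaned towards the KO label. Of 116 further genes in the table, 111 were tested, 85 lay above 0 (76.6%, against 50.0% of all tested genes) and the median was 0.42. limma called 0 of them at an adjusted p under 0.05, against 0.0968% of all tested genes called lower and 0.0088% called higher. Of the 111, 8 were higher at an unadjusted p under 0.05, against 2.86% of all tested genes, and 0 lower, against 4.46%. The medians by list were 0.68 for the ER membrane complex, an insertase for membrane proteins, 0.58 for other glycosylation and glycan trimming genes, 0.49 for other chaperones and oxidoreductases, 0.42 for targeting and signal peptide genes, 0.37 for procollagen folding, 0.21 for other degradation genes, 0.15 for the Perk branch and -0.33 for other stress transducers. Several of these rest on single libraries. Without library 1 labelled KO the median was 0.30 for glycosylation and trimming and 0.14 for procollagen folding, and without WT library 1 it was 0.22 for targeting genes, 0.28 for other chaperones and oxidoreductases and 0.25 over the 111 genes. The degradation median ranged from 0.08 to 0.15 with a library left out, and those of the Perk branch and the other transducers changed sign.

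The Perk branch is the arm that slows initiation and raises Atf4. Eif2ak3, which encodes Perk, had 4.40 and 3.87 RPKM in WT and 3.84 and 2.88 RPKM under the KO label (-0.24 ± 0.37, SE, limma adjusted p = 0.841). Atf4 had 80.9 and 82.8 RPKM in WT and 94.9 and 103 RPKM under the KO label (0.27 ± 0.43, SE). Its target Ddit3, the factor Chop, had 17 reads in all and a fold change of 0.18. The ends of the branch, chosen after their values were seen, were Asns, the Atf4 target asparagine synthetase, and Ppp1r15a, the Gadd34 subunit that returns eIF2 to its active form. Asns had 19.4 and 27.2 RPKM in WT and 39.9 and 46.6 RPKM under the KO label, with no overlap (0.88 ± 0.42, SE, limma adjusted p = 0.676). Ppp1r15a had 37.8 and 30.4 RPKM in WT and 25.5 and 18.1 RPKM under the KO label, also with no overlap and in the other direction (-0.63 ± 0.42, SE, limma adjusted p = 0.697).

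Of the genes with at least 20 reads, Magt1, an oligosaccharyltransferase subunit with thioredoxin fold, had the highest fold change of the wider list. It had 0.71 and 2.27 RPKM in WT, from 2 and 5 reads, and 12.0 and 5.56 RPKM under the KO label, from 51 and 21 reads (1.97 ± 0.54, SE, limma adjusted p = 0.629). Erp44, which retains immature cargo by disulfide exchange, had 7.76 and 9.31 RPKM against 26.8 and 28.6 RPKM, nearly equal within each group (1.59 ± 0.38, SE, limma adjusted p = 0.567). Plod2, a collagen lysyl hydroxylase, had 4.31 and 6.30 RPKM against 28.2 and 7.35 RPKM, with library 1 labelled KO far above the rest. The lowest were Atf6b, the paralog of Atf6 (-0.72), Serp1, a translocon-associated protein (-0.71), and Txndc11, a thioredoxin-domain protein (-0.66). Serpinh1, the collagen chaperone Hsp47, had 158 and 125 RPKM in WT and 232 and 112 RPKM under the KO label. Library 1 labelled KO was the highest, as for the folding chaperones, but library 2 lay below both WT libraries. Vcp, the ATPase that pulls substrates out of the membrane, had a fold change of 0.21.

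Runs of prolines were counted in the coding sequences, because such runs are the best known substrate of eIF5A. At least 3 prolines in a row occur in 8 of the 40 proteins (20%) and in 25.8% of 9849 tested protein-coding genes with a coding sequence in GENCODE M21. The 8 are Hspa5, Hyou1, Creld2, Pdia4, Pdia6, Atf6, Ern1 and Syvn1. Capitals below mark the proline codons, read 5′ to 3′ on the coding strand with 2 codons on either side, for BiP as the most abundant member and for the genes that hold runs of 4.
Hspa5, residues 641 to 643 of 655, chr2:34776060-34776080, + strand: ggaggcCCTCCCCCAactggt
Atf6, residues 450 to 453 of 656, chr1:170794686-170794709, - strand: tatatgCCTCCACCTCCAtgtcaa
Syvn1, residues 343 to 346 of 612, chr19:6050601-6050624, + strand: cagtcaCCACCACCTCCTgagcct
Syvn1, residues 395 to 398 of 612, chr19:6051012-6051035, + strand: cctgtcCCGCCTCCCCCAagctca

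The run in Hspa5 lies close to its end, and Syvn1 holds 6 runs in all. Genes with a run had a median fold change of 0.65 (6 of 8 above 0) and the 32 without one 0.60. These were 0.15 and 0.31 without library 1 labelled KO. Over all 2538 tested protein-coding genes with such a run the median was -0.13, and -0.03 and -0.25 without WT library 1 and WT library 2, where that of all tested protein-coding genes was 0.05 with all libraries. Values per gene do not show where on an mRNA the ribosomes were, so pausing at these codons is not measured here.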

How the data were processed

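Ribosome-protected fragments were measured in 4 libraries (2 WT, 2 labelled KO). The authors deposited RPKM per gene. Per the labels and methods they removed rRNA and tRNA reads, aligned with TopHat2 to mm10 with Ensembl 97 annotation and counted with HTSeq (versions not given in the sources used here). Multiplying RPKM by gene length gave whole reads for 100% of values above 0 (within 0.01 read). The authors' library sizes were 602863 and 471136 in WT and 906990 and 807705 under the KO label. The recovered reads were 648386 and 642429, and 704006 and 650210. The sizes thus lie below the recovered reads in WT and above them under the KO label. RPKM and limma-voom used these sizes, which raises WT relative to the KO label against scaling by recovered reads. Why they differ was not tested. The 11363 genes whose average over the libraries reached 1 RPKM were tested as log2(RPKM + 1) by limma 3.58.1 (R 4.3.3, eBayes with trend, two-sided), Benjamini-Hochberg adjusted over all tested genes. Fold changes on this scale understate changes of low genes. limma-voom on recovered reads called 39 genes lower and 0 higher in all, limma 11 lower and 1 higher. Genes were read through GENCODE M21, and promoters came from RefSeq. Members and lists were chosen with earlier results of these data known. Values in every library are given for fixed genes of each role, for members at an unadjusted p under 0.05 and for the lowest and highest of each role; the values of other members were chosen after they were seen. Of the wider list 3 symbols were not found in the table. Ddit3 occurs in more than 1 row, and the row with most reads was used.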

Additional observations from a re-analysis of the deposited data

How the results depend on the processing

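The 15 alternatives called 0 of the 40 genes at an adjusted p under 0.05, or of the 38 left at a minimum mean of 5 RPKM, which drops Sec61g and Ern1 (smallest adjusted p 0.309 to 0.944), and 30 to 39 of them lay above 0, against 33 in the reported fit. Their median was 0.46 to 0.66 under the alternatives that keep all 4 libraries, except with libraries scaled to the same sum, where it was 1.60 and the median of all genes moved to 0.81, leaving 0.80 between them. That scaling also moved the median of the further pathway genes to 1.31, gave 22 of the 40 and 35 of the further genes higher at an unadjusted p under 0.05 (14.4% of all tested genes), and turned Atf6 to 0.69, Edem1 to 0.50, Ern1 to 0.57, Ero1l to 0.90, Stt3b to 0.91, Atf6b to 0.27, Eif2ak3 to 0.58 and Serp1 to 0.26; relative to the median of all genes, Ero1l and Stt3b came to lie above it by 0.09 and 0.10, and Atf6, Edem1, Ern1, Atf6b, Eif2ak3 and Serp1 stayed below it. Of the 40, those higher at an unadjusted p under 0.05 numbered 4 with at least 20 reads, an average of 5 RPKM or quantile normalization (4.04%, 3.23% and 3.71% of all genes tested there), 5 with the coding GC trend removed or limma-voom (3.32% and 3.48%), 6 with every gene above 0 (2.13%) and 7 with protein-coding genes only (4.23%). Those lower numbered 1 with at least 20 reads, every gene above 0, an average of at least 5 RPKM, protein-coding genes only or the same sum over protein-coding genes (2.81% to 5.93% of all genes tested). The further genes higher at that p numbered 5 with the GC trend removed or the same sum over protein-coding genes and 12 with limma-voom. Manf also turned above 0 with libraries scaled to the same sum, where 39 of the 40 lay above 0 and Sdf2l1 was at -0.016. Vcp was -0.0104 with the GC trend removed. The causes were not tested.

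With the replicate block 4 of the 40 were higher at an unadjusted p under 0.05 (2.8% of all tested genes) and 0 passed the adjustment, and the medians were unchanged. Same-numbered libraries share only a number (correlation of their deviations from the group means 0.06, 11363 genes).

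Leaving out each library in turn, with the lone library assumed to vary like the other group, gave medians of the 40 from 0.27 (without library 1 labelled KO) to 0.77 (without library 2), and 0 to 5 of them higher at an unadjusted p under 0.05 (1.8% to 7.12% of all tested genes). The further genes had 1 to 15 higher and 0 to 1 lower, with 15 without WT library 2. Of the genes picked by the naming rule, those that changed sign were Hsp90b1 (-0.20 to 1.90), Stt3b (-0.47 to 0.26), Serpinh1 (-0.33 to 0.72) and Vcp (-0.18 to 0.59) without library 1 labelled KO, Ero1l (-0.47 to 0.34) and Ddit3 (-0.20 to 0.56) without library 2 labelled KO, Atf6 (-0.46 to 0.094) and Stt3b without WT library 1, and Sec61b (-0.10 to 1.12) and Ddit3 without WT library 2. Of the remaining members, Pdia4 turned to -0.017 without library 1 labelled KO, Manf to 0.71 and Dad1 to -0.043 without library 2 labelled KO, and Sec63 to -0.011 and Dad1 to -0.11 without WT library 2. At 28 to 3649 reads per gene over all libraries, differences of single low genes were limited by counting.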
